A study of Mus musculus with 36 samples.

Results

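The mitosis genes were 40 protein-coding mouse genes of the G2/M programme, taken by their symbols from each of the 3 RNA tables of the series. All 40 were found among the 46078 rows of the table of sorted cells, the 35896 rows of the table of Pax5-/- cells and the 18721 rows of the table of cultured Sirt7-/- cells, and all 40 passed the filter on low values in each table (17649, 13345 and 13651 genes passed in all). The rule that chose them names the genes and uses no measured value, though the list was drawn up with earlier results of these data known. It held 7 genes of mitotic entry, 7 mitotic kinases, 5 genes of the spindle checkpoint and anaphase, 3 of the chromosomal passenger complex, 5 of the kinetochore and centromere, 11 of the motors, spindle and cytokinesis, and 2 of chromosome structure and proliferation.

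The study asked how the deacetylase SIRT7 and the acetylation of a lysine (K198) of the B cell transcription factor Pax5 act in early B cells. Polyadenylated RNA was sequenced in 24 libraries, 2 in each of 12 groups, and Pax5 ChIP was sequenced in 6 libraries. The sorted cells were pro-B cells (sorted as IgM- CD43+) and pre-B cells (sorted as IgM- CD43-) from the bone marrow of 2 wild-type and 2 Sirt7-/- mice of the 129Sv background, aged 8 to 16 weeks. The second set was Pax5-/- pro-B cells, described as bone marrow cells in the labels and as fetal liver cells in the methods, from mice of the C57BL/6 background, that carried a retrovirus with no insert (EV), with wild-type Pax5, with Pax5 K198Q, which mimics the acetylated lysine, or with Pax5 K198R, which mimics the deacetylated lysine. The third set was cultured pro-B cells, from mice given as 129Sv unless stated otherwise, wild-type with EV and Sirt7-/- with EV, wild-type Pax5 or Pax5 K198R, so that the Sirt7-/- cells of that set carried their own Pax5 as well. All cultures grew on inactivated OP9 stromal cells with IL-7, SCF and FLT3-L, the retroviruses carried human CD4 or GFP as a marker by which infected cells were selected, and none of the cultured groups was therefore an untouched population.

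For the sorted libraries the cell type field of the labels named every replicate 1 library pro-B and every replicate 2 library pre-B, whichever stage its title and description gave, and the stage was taken from the titles. The titles were checked against marker genes. In pro-B cells the wild-type mice had 2612 ± 113 normalized counts of Sirt7 (SD, n = 2) and the Sirt7-/- mice 365 ± 2.16, and in pre-B cells these were 5416 ± 278 and 943 ± 174. The 8 pro-B markers summed to between 106194 and 137440 normalized counts in the 4 pro-B libraries and to between 23046 and 37099 in the 4 pre-B libraries, which matched the titles and not the cell type field. The 8 pre-B markers did not separate the sorts: they summed to 302062 and 628063 in the wild-type and 497266 and 452785 in the Sirt7-/- pro-B libraries, and to 400717 and 451999 in the wild-type and 415047 and 400742 in the Sirt7-/- pre-B libraries, with Igkc as the most abundant and none at 0. In the Pax5-/- cells Pax5 reads were at 2152 ± 69.2 with EV, 6305 ± 217 with wild-type Pax5, 8941 ± 31.9 with K198Q and 18886 ± 3219 with K198R, so that the 3 forms were not at equal RNA levels. A pair of libraries stood apart in the sorted set: the 10 erythroid markers summed to 55608 normalized counts in the second Sirt7-/- pro-B library and to 82106 in the second Sirt7-/- pre-B library, with the haemoglobin gene Hba-a1 as the most abundant and none of the 10 at 0, and to between 17072 and 26245 in the other 6. The 8 NK cell markers were highest in the same libraries, at 1581 in the second Sirt7-/- pro-B library, where the other pro-B libraries had 635 to 716, and at 1015 in the second Sirt7-/- pre-B library, where the other pre-B libraries had 160 to 365. Comparisons between genotypes, and between stages in Sirt7-/- mice, are given with and without them.

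Mitosis is driven by cyclin-dependent kinase 1 bound to cyclins A and B, which is switched on by the phosphatases of the Cdc25 family and switched off when the anaphase-promoting complex destroys the cyclins. Aurora and Polo-like kinases build the spindle, the checkpoint kinases hold anaphase until every kinetochore is attached, and separase then cuts the cohesin that joins sister chromatids. Most of these genes are transcribed late in the cell cycle under the MuvB complex with B-Myb and FoxM1, and their RNA is low in cells that have left the cycle. In the bone marrow, pro-B cells and large pre-B cells divide in response to IL-7 and the pre-B cell receptor, and small pre-B cells rest while the light chain genes rearrange.

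Genes of this programme are known for a pair of short promoter motifs near the start of transcription: the cell cycle genes homology region, whose core is TTTGAA or TTTAAA, and upstream of it the CCAAT box bound by NF-Y. RefSeq promoter windows (GRCm38.p6, 250 bases before to 50 bases after a gene's start) were matched for 33 of the 40 genes. Counting both strands, so that TTCAAA and ATTGG are the same motifs read on the other strand, 26 of the 33 windows (78.8%) held TTTGAA or TTTAAA, beside 30.6% of the windows of all 27025 genes, and 25 (75.8%) held CCAAT, beside 41.1%. Both motifs stood in 22 of the 33 windows (66.7%), in 12.2% of all windows, and in 34 of 80 windows (42.5%) of other mitosis genes that were not on the list. A match to these letters is a description of the sequence and does not show that a factor binds there. The 5 windows printed here are shown because they carry both motifs within the 100 bases before the RefSeq start and outside the annotated span of the gene (GENCODE M21), in the order of the falls described next. Each is written on the gene's own strand, with the motifs in capitals, and they lie at chr7:122159335-122159434 on the plus strand (Plk1), chr4:118437353-118437443 on the minus strand (Cdc20), chr10:69352939-69353012 on the minus strand (Cdk1), chr19:37376282-37376381 on the plus strand (Kif11) and chr11:99024190-99024289 on the minus strand (Top2a).
Plk1: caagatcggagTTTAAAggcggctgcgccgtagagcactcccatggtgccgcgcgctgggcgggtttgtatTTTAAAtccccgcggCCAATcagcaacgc
Cdc20: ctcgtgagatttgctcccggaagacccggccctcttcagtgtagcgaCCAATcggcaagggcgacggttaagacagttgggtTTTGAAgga
Cdk1: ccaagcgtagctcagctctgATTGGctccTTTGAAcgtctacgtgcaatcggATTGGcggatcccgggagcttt
Kif11: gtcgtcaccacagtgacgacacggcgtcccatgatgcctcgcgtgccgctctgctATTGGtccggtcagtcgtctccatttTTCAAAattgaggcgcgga
Top2a: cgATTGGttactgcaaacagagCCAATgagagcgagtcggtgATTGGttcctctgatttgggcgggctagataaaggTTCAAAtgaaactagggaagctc
In the Cdc20, Kif11 and Top2a windows every CCAAT motif stood upstream of the homology motif. The Cdk1 window held a CCAAT motif on each side of it, and the Plk1 window held its only CCAAT motif on the downstream side of both TTTAAA motifs.

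The first comparison asked how the programme differed between pro-B and pre-B cells. In wild-type mice all 40 genes fell from pro-B to pre-B cells, by a median of 3.18-fold. The fall ranged from 4.82-fold for Ccnb1, which encodes cyclin B1, to 1.52-fold for Cdc25b, which encodes a phosphatase that activates cyclin-dependent kinase 1. In limma, 40 of 40 passed an adjusted p of 0.05 as lower, where 22% of the 17649 genes tested did, and 31 of 40 also fell by at least 1.5 on the log2 scale, where 9.55% did. The median log2 fold change was -1.67 for the 40 genes and -0.04 for all genes tested, and for each of the 40 both pre-B libraries lay below both pro-B libraries, where 38.1% of all genes did so. Since whole populations were sequenced, fewer dividing cells and less RNA per cell cannot be told apart. Markers of other cells moved between these sorts as well. The 8 mature B markers, led by Ighd, summed to 33094 and 32971 normalized counts in the wild-type pro-B libraries and to 164434 and 128195 in the wild-type pre-B libraries, with none at 0. The 8 plasma cell markers summed to 70762 and 113190 in pro-B and to 62325 and 72806 in pre-B, so that the stages overlapped. Jchain led the second pro-B library and Irf4 the others, with Tnfrsf17 at 0 in the first pre-B library. The 10 myeloid markers summed to 33731 and 24672 in pro-B, led by S100a9, and to 15240 and 14911 in pre-B, led by Itgam, with none at 0. Their part in the fall was not tested.

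**Figure D1:**
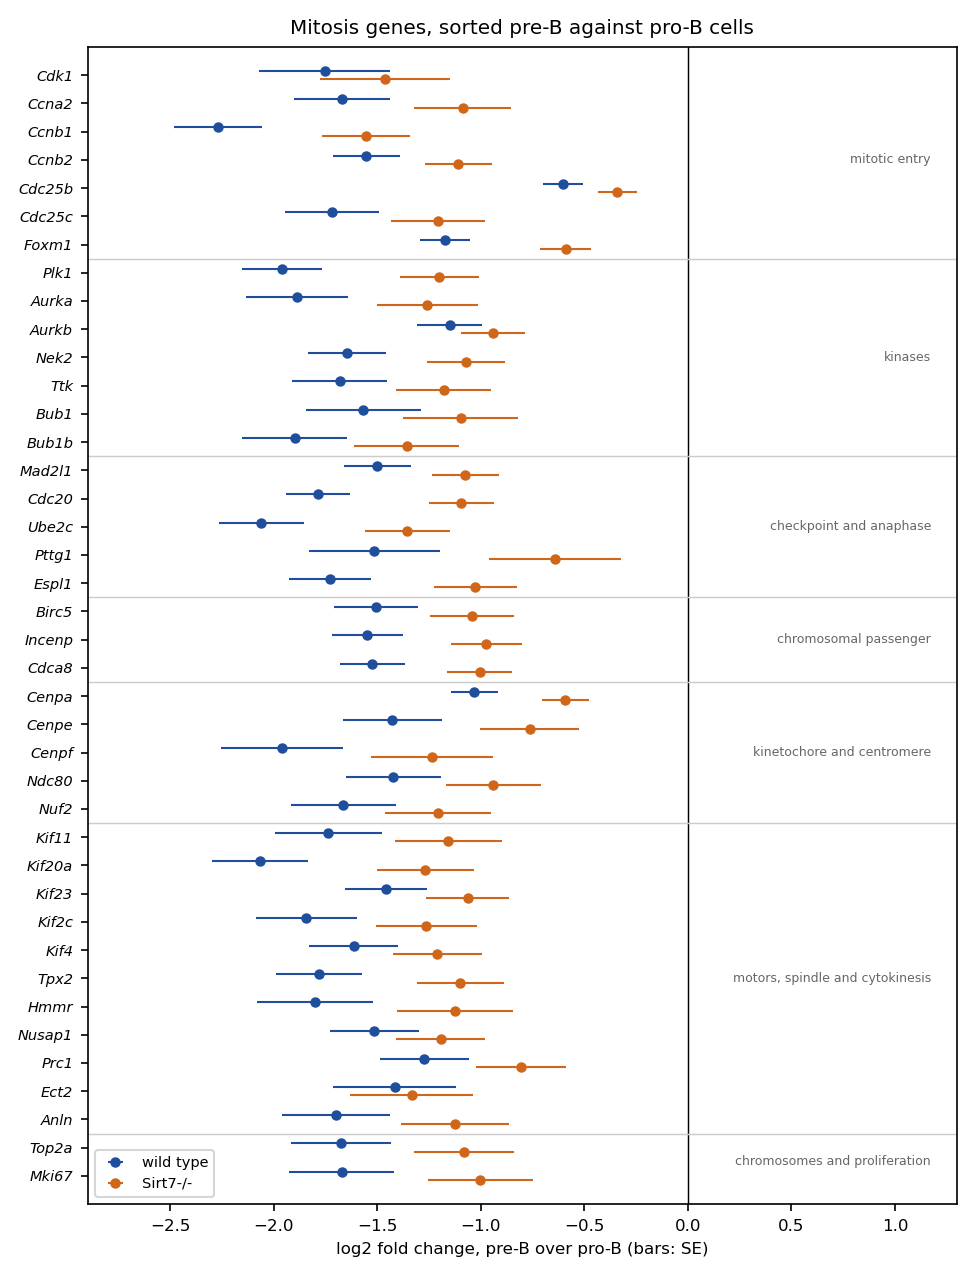
Log2 fold change of each of the 40 mitosis genes in sorted pre-B over pro-B cells (horizontal axis, log2 of normalized count + 1), wild type in blue and Sirt7-/- in orange, with bars for the standard error from limma. Every point lies left of 0, and for each gene the wild-type point lies left of the Sirt7-/- point, with the smallest gap at Ect2.

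Among the genes of mitotic entry, Cdk1 RNA, which encodes the kinase itself, was at 5302 and 5398 normalized counts in the wild-type pro-B libraries and at 1281 and 1959 in the wild-type pre-B libraries (log2 fold change -1.76, SE 0.315, adjusted p = 0.00485 in limma). Ccnb1, its cyclin partner, went from 6874 and 7772 to 1291 and 1775 (-2.27, SE 0.214, adjusted p = 0.000437 in limma). Foxm1, the transcription factor of the programme, went from 27822 and 26358 to 11162 and 12921 (-1.17, SE 0.122, adjusted p = 0.000599 in limma). The groups of these 3 genes were far apart, and Foxm1 fell by less than Cdk1 or Ccnb1. The other cyclins, Ccna2 and Ccnb2, fell by 1.67 and 1.55 on the log2 scale. The phosphatase genes differed from each other: Cdc25c fell by 1.72, while Cdc25b fell by 0.60 from 20322 and 20250 to 12759 and 13975, the smallest fall of the 40.

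All 7 mitotic kinases fell. Plk1, the Polo-like kinase of centrosome maturation and mitotic exit, went from 18181 and 18909 normalized counts to 4194 and 5402 (-1.96, SE 0.191). Bub1, a checkpoint kinase at the kinetochore, went from 4573 and 4866 to 1319 and 1914 (-1.57, SE 0.278). Aurkb, the kinase of the chromosomal passenger complex, went from 7752 and 8919 to 3361 and 4169 (-1.15, SE 0.156). The log2 fold change was -1.89 for Aurka, the kinase of the spindle poles, -1.90 for Bub1b, which encodes the checkpoint protein BubR1, -1.68 for Ttk, the checkpoint kinase Mps1, and -1.65 for Nek2, a centrosome kinase. Aurkb thus had the smallest fall of the 7.

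All 5 checkpoint and anaphase genes fell. Cdc20, the activator of the anaphase-promoting complex, went from 11095 and 11011 normalized counts to 2729 and 3757 (-1.79, SE 0.156), with the lowest adjusted p of the 40, 0.000349 in limma. Ube2c, the ubiquitin-conjugating enzyme of that complex, went from 20417 and 22319 to 4252 and 6140 (-2.06, SE 0.205). Espl1, which encodes separase, fell by 1.73. Mad2l1, which encodes the checkpoint protein Mad2, fell from a mean of 10589 to 3752. Pttg1, which encodes securin, went from 3910 and 2812 to 1298 and 1034 (-1.52, SE 0.317). The wild-type pro-B libraries differed more from each other for Pttg1 than for Cdc20.

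The 3 chromosomal passenger genes fell by similar amounts: Birc5, which encodes survivin, at -1.51, Incenp, the scaffold, at -1.55 and Cdca8, which encodes borealin, at -1.52 on the log2 scale. Birc5 went from 9131 and 9604 normalized counts to 2689 and 4024. The 5 kinetochore and centromere genes were less alike. Cenpf, a large coiled-coil protein of the outer kinetochore, fell by 1.96, and Cenpa, the histone H3 variant that marks centromeres, fell by 1.03, from 9218 and 8008 to 4128 and 4276. Nuf2 and Ndc80, subunits of the complex that binds microtubules, were at -1.66 and -1.42, and Cenpe, a kinesin of chromosome alignment, at -1.43.

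All 11 motor, spindle and cytokinesis genes fell, with a median log2 fold change of -1.70. Kif20a, a kinesin of the central spindle, went from 8823 and 8832 normalized counts to 1731 and 2559 (-2.07, SE 0.234). Kif11, the kinesin that pushes spindle poles apart, went from 20043 and 20528 normalized counts to 5228 and 7083 (-1.74, SE 0.260). The log2 fold change was -1.84 for the depolymerising kinesin Kif2c, -1.80, -1.78 and -1.52 for the spindle regulators Hmmr, Tpx2 and Nusap1, and -1.62 for the chromokinesin Kif4. Of the cytokinesis genes, Anln, which binds actin in the furrow, was at -1.70, Kif23 at -1.46, Ect2, which activates the GTPase RhoA, at -1.42, and Prc1, which bundles microtubules, at -1.27. Top2a, which untangles sister chromatids, went from 60565 and 65124 to 16087 and 23995, and Mki67, which coats mitotic chromosomes and encodes the proliferation marker Ki-67, went from 122094 and 128260 to 31857 and 48299. The changes of Top2a (-1.68) and Mki67 (-1.67) were close to the median of the 40. In 39 of the 40 genes the second wild-type pre-B library was above the first, the exception being Pttg1. This count has no share of all genes beside it.

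**Figure D2:**
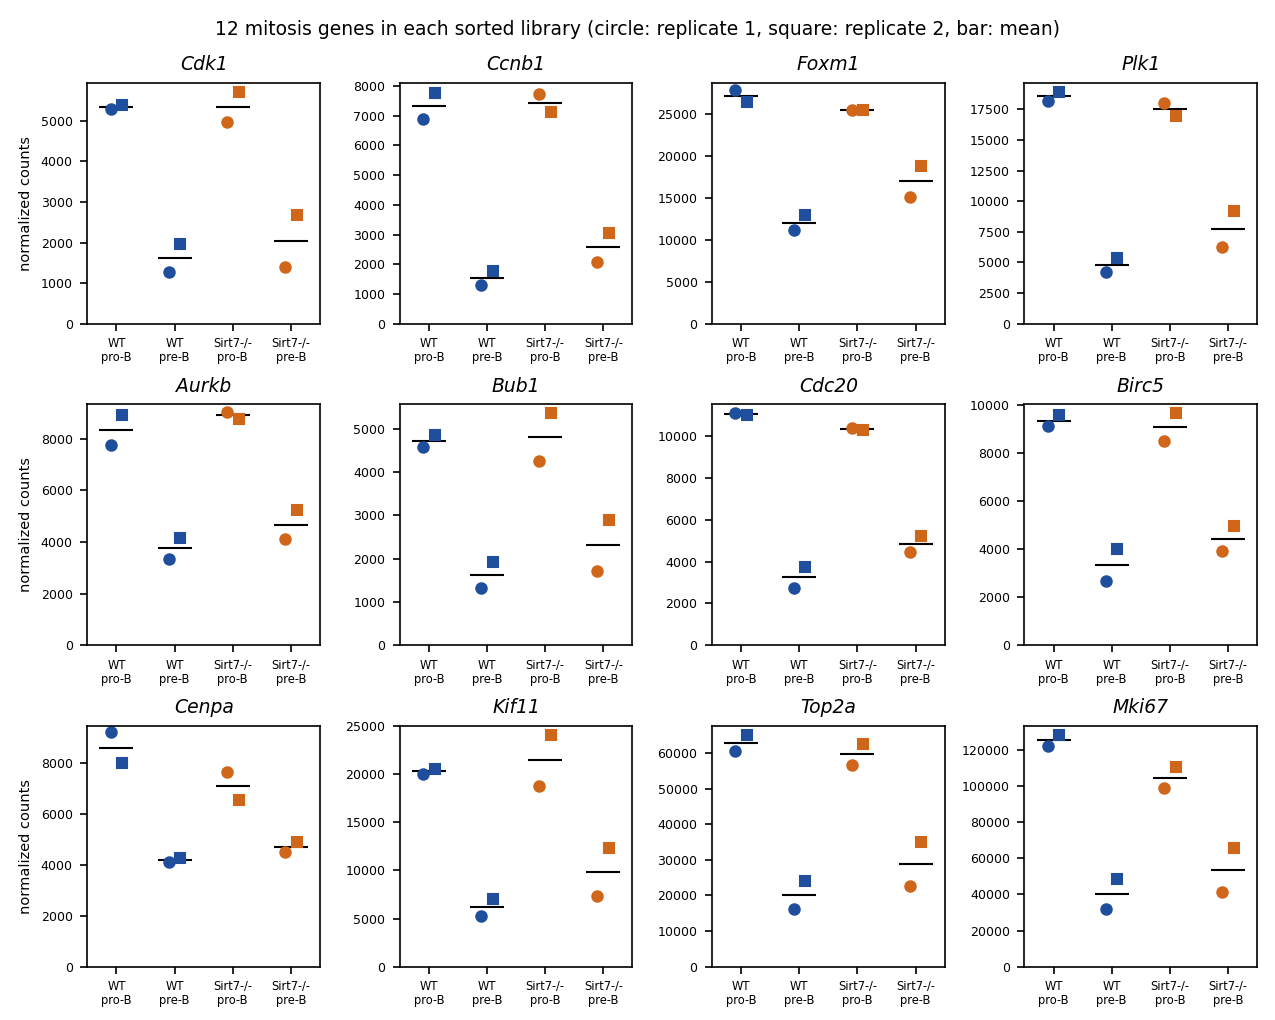
Normalized counts (vertical axes, each from 0) of 12 mitosis genes in every sorted library, wild type in blue and Sirt7-/- in orange, circles for replicate 1, squares for replicate 2 and bars for the mean of 2. In all 12 panels the pre-B libraries lie below the pro-B libraries of the same genotype.

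The same comparison in Sirt7-/- mice gave a fall in 39 of the 40 genes by limma, where 19.2% of all genes tested were lower, with a median of -1.10 (all genes tested -0.04). For all 40 the pre-B libraries lay below the pro-B libraries, where 36.8% of all genes did so. The gene that missed the threshold was Pttg1, which went from 2838 and 2612 normalized counts to 1247 and 2438 (-0.64, SE 0.317, adjusted p = 0.159 in limma). Ccnb1 was the single gene past 1.5 on the log2 scale, where 6.03% of all genes were lower by that rule, and went from 7722 and 7108 to 2088 and 3043 (-1.56). The next largest falls were those of Cdk1, from 4983 and 5712 to 1401 and 2673 (-1.46), and Bub1b, from 13055 and 14905 to 4374 and 6760 (-1.36). The smallest falls were those of Cdc25b (-0.34), Cenpa (-0.59) and Foxm1 (-0.59). The count rested on single libraries. It was 30 of 40, with a median of -1.34, where 11.2% of all genes were lower, when both erythroid-rich Sirt7-/- libraries were left out, a fit that sets 1 pre-B library against 1 pro-B library and takes their spread from the wild-type groups. It was 20 without the second pro-B library alone, where 10.2% of all genes were lower, 28 without the first pro-B library (10.7%), 24 without the first pre-B library (12.2%) and 40 without the second pre-B library (18.6%). The mature B markers, led by Ighd, summed to 39098 and 35219 normalized counts in the Sirt7-/- pro-B libraries and to 293014 and 197610 in the pre-B libraries, with none at 0. The myeloid markers summed to 27087 and 9554 in pro-B and to 11508 and 10690 in pre-B, with Itgam as the most abundant and Cd14 at 0 in all but the first pro-B library, which S100a9 led. The plasma cell sum went from 84810 and 84462 in pro-B, led by Jchain, to 56864 and 58377 in pre-B, led by Irf4, with Tnfrsf17 at 0 in pre-B. Their part in the fall was not tested.

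The second comparison asked whether the loss of Sirt7 changed the programme within a stage. In pro-B cells the 40 genes lay around 0, 12 above and 28 below, with a median of -0.04 (0.00 over all genes tested), and 7 above and 33 below, with a median of -0.11, without both erythroid-rich libraries. None of the 40 was called by limma, where 0.0623% of genes were, and 1 had an unadjusted p under 0.05, which was Cenpa (-0.28), where 5.94% of all genes did. No member was called by edgeR, which called 0.00567% of all genes higher and 0.051% lower. DESeq2 called none of the 40 either, and 0.249% of all genes higher and 0.465% lower. In pre-B cells all 40 genes were above 0, with a median log2 fold change of 0.49 (0.02 over all genes tested), or 1.41-fold. None passed the adjusted threshold in limma, where 0.085% of all genes did, and the lowest adjusted p of the 40 was 0.177 for Foxm1. An unadjusted p under 0.05 was reached by 16 of the 40, where 8.56% of all genes were higher by that measure.

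Ube2c had the largest difference in pre-B cells (0.77, SE 0.205, adjusted p = 0.201 in limma), followed by Ccnb1 (0.73, SE 0.214, adjusted p = 0.228), Kif20a (0.72, SE 0.234, adjusted p = 0.252) and Plk1 (0.68, SE 0.191, adjusted p = 0.213). Plk1 was at 4194 and 5402 normalized counts in the wild-type pre-B libraries and at 6300 and 9204 in the Sirt7-/- pre-B libraries. Foxm1 was at 11162 and 12921 against 15142 and 18824, and Cdc20 at 2729 and 3757 against 4465 and 5247. For these 3 genes, as for 18 of the 40, both Sirt7-/- libraries lay above both wild-type libraries, where 22.1% of all genes did so. For Cdk1, at 1281 and 1959 against 1401 and 2673, and for Mki67, at 31857 and 48299 against 41322 and 65706, the groups overlapped. With 2 against 2 libraries the smallest two-sided p of an exact permutation test is 0.333, so that no single gene can pass 0.05 that way.

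The second Sirt7-/- pre-B library was above both wild-type libraries for all 40 genes, while the first was above the first wild-type library for 39 and above the second wild-type library for 19. Between the wild-type pre-B libraries themselves, the second was above the first for 39 of the 40. These counts are given without a share of all genes and describe the order of the libraries only. Without the second Sirt7-/- pre-B library the median difference was 0.203, with 38 of the 40 above 0 and 4 at an unadjusted p under 0.05, where 6.23% of all genes were higher by that measure. The named differences were smaller as well, at 0.53 for Ube2c, 0.46 for Ccnb1, 0.43 for Kif20a, 0.40 for Plk1 and 0.33 for Foxm1. These differences were the same when its pro-B pair was left out as well, where 1 of the 40 had an unadjusted p under 0.05, beside 5.36% of all genes. Both Sirt7-/- libraries had lain above wild type for 18 genes, and the first alone lay above both wild-type libraries for 18 as well, where 36.5% of all genes did so. Without the first Sirt7-/- pre-B library the median was 0.766. DESeq2 on the whole reads recovered from the table called 6 of the 40 higher (Ccnb1, Cdc20, Cdca8, Foxm1, Plk1 and Ube2c), where it called 4.08% of all genes in either direction. From the same reads edgeR called none of the 40 and 0.0283% of all genes. Without the second Sirt7-/- pre-B library, alone or with its pro-B pair, neither tool called any, where DESeq2 called 2.43% and 1.45% of all genes.

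**Figure D3:**
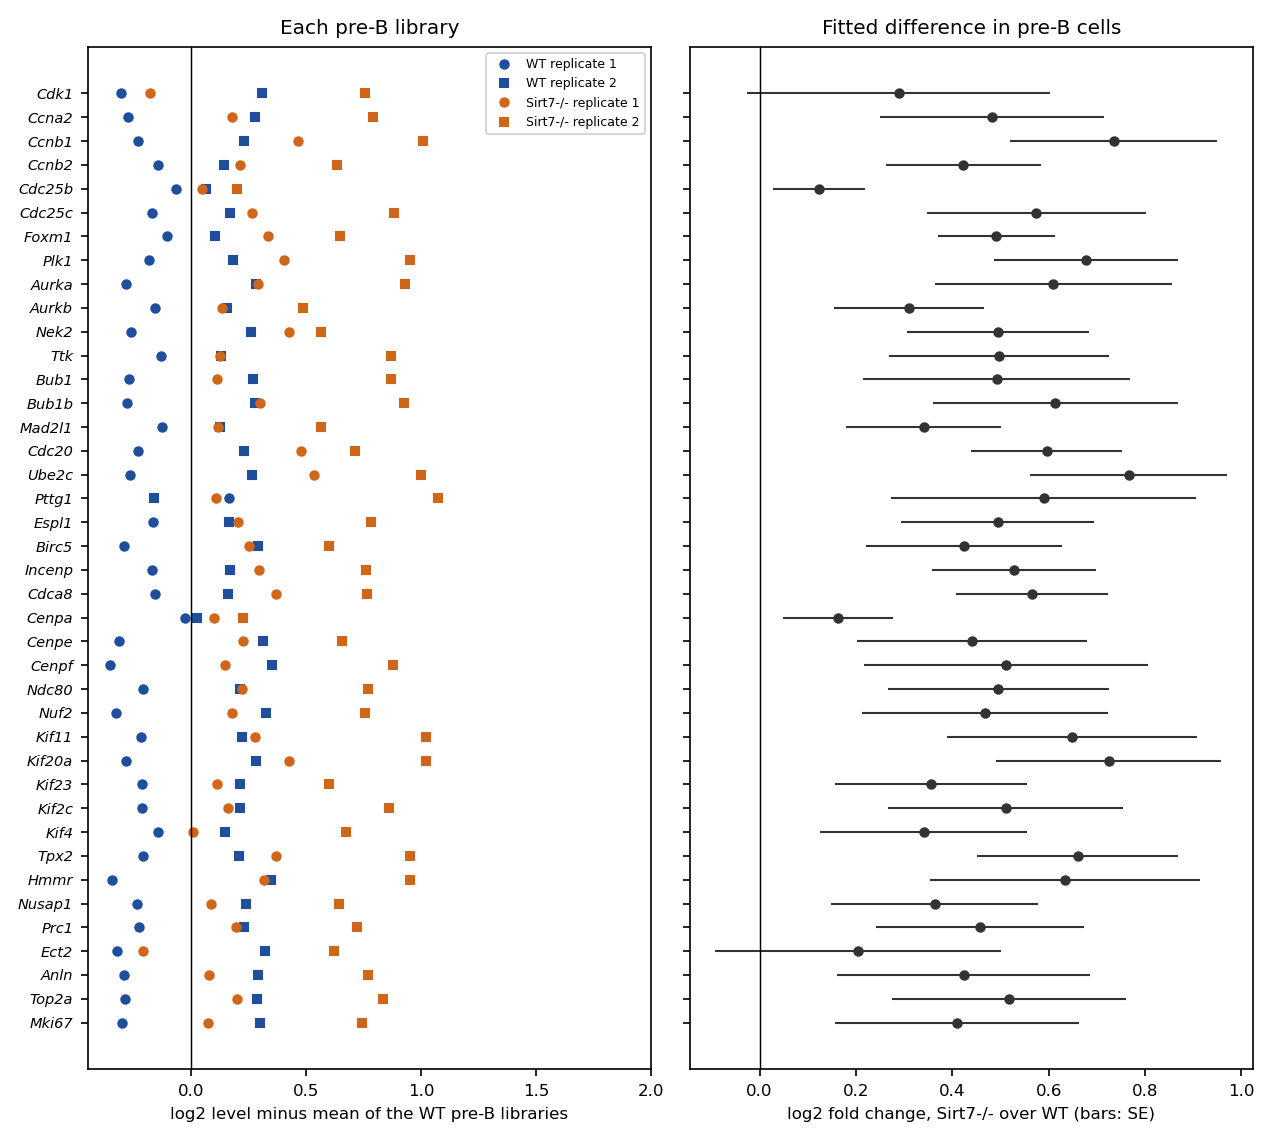
Left, log2 level of each mitosis gene in each sorted pre-B library minus the mean of the 2 wild-type pre-B libraries, wild type in blue and Sirt7-/- in orange, circles for replicate 1 and squares for replicate 2. Right, the fitted log2 fold change of Sirt7-/- over wild type with its standard error. All 40 fitted values lie above 0, the second Sirt7-/- library lies furthest right for all 40, and the first Sirt7-/- library lies among the wild-type points for 22.

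Markers of the B cell stages moved with this difference, and their part in it was not tested. The 8 pro-B markers summed to 23046 and 31949 normalized counts in the wild-type pre-B libraries and to 23792 and 37099 in the Sirt7-/- pre-B libraries, with Il7r as the most abundant and none at 0, and 7 of the 8 were above 0 in the comparison of genotypes, with a median of 1.98. Without the second Sirt7-/- pre-B library 6 of the 8 were, with a median of 1.24. The sum of the 8 mature B markers was 164434 and 128195 in the wild-type libraries and 293014 and 197610 in the Sirt7-/- libraries, with Ighd as the most abundant and none at 0. Within each genotype the library with more pro-B marker RNA and less mature B marker RNA was the one with the higher median of the mitosis genes. The erythroid sum was high in the second Sirt7-/- pre-B library, as given above, and the difference was smaller without that library.

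Among pro-B libraries the 40 genes held 1.19% and 1.21% of all normalized counts in wild type and 1.09% and 1.17% in Sirt7-/- mice, and among pre-B libraries 0.323% and 0.435% for wild type and 0.428% and 0.619% for Sirt7-/-. The fall between stages was tested for a difference between genotypes by the interaction term. All 40 interaction values were above 0, that is a smaller fall in Sirt7-/- cells, with a median of 0.57 (0.03 over all genes tested) and of 0.35 without both erythroid-rich libraries. None was called in limma, where 0.00567% of all genes were, with 0.827 as the lowest adjusted p of the 40, and 8 of the 40 had an unadjusted p under 0.05, all of them above 0, where 3.69% of all genes did. Neither edgeR nor DESeq2 called any of the 40. Of all genes, edgeR called 0.00567% above 0 and 0% below, and DESeq2 called 0.408% above and 0.164% below. The interaction and the pre-B comparison share the pre-B libraries and are not separate evidence.

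Genes around the programme were read from lists of the same pathways. Of 90 other mitosis genes tested, 85 fell from pro-B to pre-B cells in wild type and 77 in Sirt7-/- mice, where 22% and 19.2% of all genes fell. In Sirt7-/- mice it was 47, where 11.2% of all genes fell, without both erythroid-rich libraries. In wild type the log2 fold change was -2.28 for Iqgap3, a scaffold of cytokinesis, -2.15 for the kinesin Kif14 and -2.11 for the kinetochore gene Cenpw. Of 32 replication genes 31 fell in each genotype, and 28 in Sirt7-/- mice without both erythroid-rich libraries. In wild type they included Tyms, which makes thymidylate (-2.31), and the origin factors Mcm10 (-2.16) and Mcm6 (-2.06). The other lists were divided, and their counts in wild type stand beside 22% of all genes that fell and 18.1% that rose. Of 17 genes of the anaphase-promoting complex and its regulators, 8 fell and 2 rose in wild type, the falls including those of Fbxo5, an inhibitor of the complex (-1.02), Ube2s (-0.98) and its activator Fzr1 (-0.84), and the rises being in the subunits Anapc16 (0.50) and Cdc26 (0.37).

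Of 11 inhibitors of mitotic entry, 5 fell and 1 rose in wild type. The kinases Chek1, Wee1 and Pkmyt1, which hold cyclin-dependent kinase 1 in check, fell with it (-1.85, -1.64 and -1.32), and Gadd45b rose by 1.23. Of 22 genes of the MuvB and E2F machinery, 11 fell and 4 rose. Those that fell included Tfdp1 (-1.95), the partner of the E2F factors, Mybl2 (-1.75), which encodes B-Myb, and E2f7 (-1.66), and those that rose included the pocket protein genes Rb1 (0.49) and Rbl2 (0.47) and the MuvB subunit Lin52 (0.41). Of 19 genes of the G1 phase, 10 fell and 4 rose: Myc was at -3.65, Cdk6 at -2.68 and Ccnd2, which encodes cyclin D2, at -2.63, while the antiproliferative genes Btg1 and Btg2 rose by 2.14 and 2.12 and the inhibitor gene Cdkn1b, which encodes p27, rose by 1.43. In the pre-B comparison of Sirt7-/- with wild type none of these lists held a gene called by limma, and 40 of the 90 other mitosis genes had an unadjusted p under 0.05, all of them higher, where 8.56% of all genes were. Without the second Sirt7-/- pre-B library 9 of the 90 did, where 6.23% of all genes were higher. Of the replication genes 31 of the 32 were above 0, with a median of 0.52, and 20 of them had an unadjusted p under 0.05. Without that library 27 were above 0, with a median of 0.27, and 12 had an unadjusted p under 0.05, all of them higher.

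The third comparison asked whether restoring Pax5 to Pax5-/- pro-B cells, as wild type or with either mutation, changed the programme. The 3 forms were each compared with the same EV libraries. The median log2 fold change of the 40 genes was 0.07 with wild-type Pax5, -0.04 with K198Q and 0.06 with K198R (0.00, -0.01 and 0.01 over all genes tested). No member was called with wild-type Pax5, where 3.25% of all genes were, or with K198Q, where 0.922% were, and 3 and 1 of the 40 had an unadjusted p under 0.05, where 14.4% and 7.86% of all genes did. With K198R 1 of the 40 was called, where 9.92% of all genes were, and 3 had an unadjusted p under 0.05, where 22.9% did. That gene was Cenpa, at 8215 and 7388 normalized counts with EV and 4914 and 5954 with K198R (-0.53, SE 0.114, adjusted p = 0.0257 in limma). It was at 6444 and 6299 with wild-type Pax5 and at 6980 and 6430 with K198Q, so that all 6 libraries with Pax5 lay below both EV libraries. The Cenpa call was lost without either EV library (adjusted p = 0.151 and 0.068), without the first K198R library (0.0774) and in a fit of these groups alone (0.101).

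Replicates of the same number moved together in these cells, and a fit with the replicate number as a block called Cdc25b higher with wild-type Pax5 (0.77, adjusted p = 0.0161 in limma, 0.0694 without the block) and with K198R (0.65, adjusted p = 0.0184), and Kif23 lower with K198R (-0.68, adjusted p = 0.0351). By that fit 1 of the 40 was called with wild-type Pax5, where 10.1% of all genes were, and 3 with K198R, where 21.2% were. Cdc25b was at 807 and 690 normalized counts with EV, 1134 and 1434 with wild-type Pax5, 904 and 978 with K198Q and 1010 and 1351 with K198R, with every Pax5 library above both EV libraries. Kif23, a motor of the central spindle, was at 4467 and 3856 with EV, 2744 and 2745 with wild-type Pax5, 3040 and 2856 with K198Q and 2054 and 3284 with K198R, with every Pax5 library below both EV libraries. Marker sums moved in these cells as well. From EV to K198R the B lineage sum, which includes Pax5, went from 28199 and 28401 to 84940 and 81035. The plasma cell sum, led by Jchain, went from 88445 and 86812 to 55167 and 45098. The NK cell sum went from 1259 and 1130 to 335 and 171, with Ncr1 and Eomes at 0. Their part in the Cenpa, Cdc25b and Kif23 differences was not tested.

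The mutants were also compared with wild-type Pax5 and with each other. The median of the 40 was -0.12 for K198Q against wild-type Pax5, 0.00 for K198R against wild-type Pax5 and 0.14 for K198R against K198Q (-0.01, 0.01 and 0.01 over all genes tested). None of the 40 was called in any of the 3, where 0.0225%, 2.87% and 5.01% of all genes were, and 1, 0 and 1 of the 40 had an unadjusted p under 0.05, where 3.46%, 12.7% and 16.9% did. The spread between replicates was wider than these medians. Measured from the EV mean, the median of the 40 was -0.058 and 0.058 in the EV libraries, -0.093 and 0.232 with wild-type Pax5, -0.196 and 0.140 with K198Q and -0.328 and 0.492 with K198R. The second library was above the first for 27, 38, 37 and 39 of the 40 genes in these groups. These counts have no share of all genes beside them and describe the order of the libraries only. The 10 feeder and stroma markers, led by Fn1 and with Dcn and Lum at 0, were likewise higher in the second library of each group: 3126 and 4162 normalized counts with EV, 2477 and 6403 with wild-type Pax5, 2897 and 5004 with K198Q and 2896 and 4108 with K198R. Their part in the spread was not tested.

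**Figure D4:**
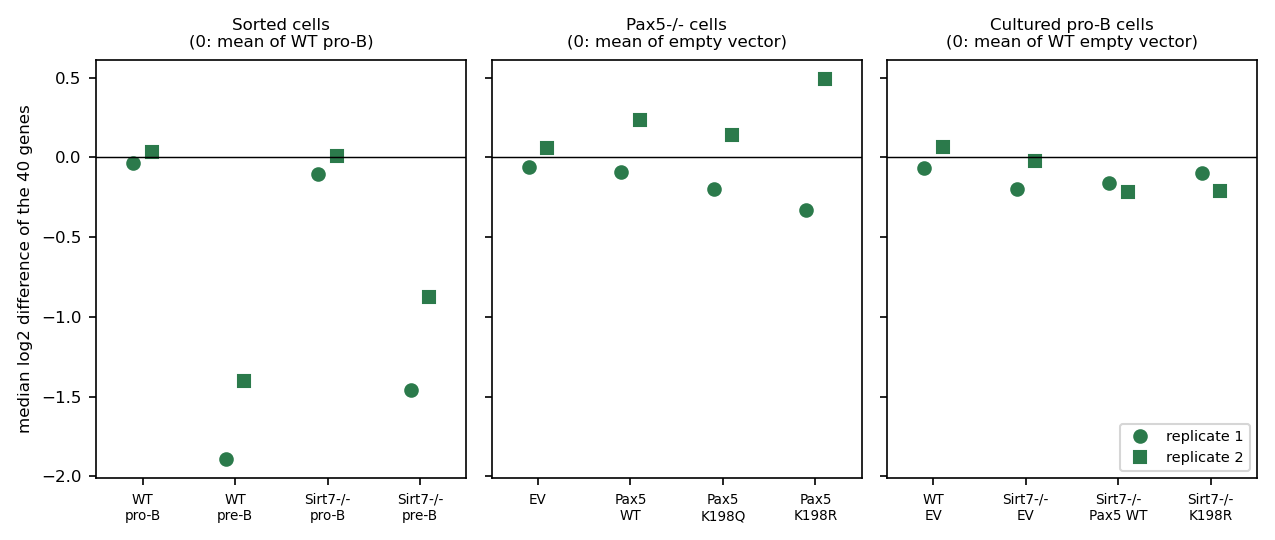
Median over the 40 mitosis genes of the log2 difference (vertical axis) between each library and the mean of the reference group of its table, which is marked 0, with circles for replicate 1 and squares for replicate 2. The 4 pre-B libraries lie between -1.89 and -0.88, and every other library lies within 0.5 of 0.

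Pax5 ChIP in the Pax5-/- cells gave 10646 and 11830 peaks for wild-type Pax5, 3750 and 3957 for K198Q and 12158 and 13997 for K198R. The peak names of the second K198R list carry another replicate number than its label, and the label was used. A peak in both replicates within 2000 bp of the start site was found at 8 of the 40 genes (20%) for wild-type Pax5, at 3 (7.5%) for K198Q and at 10 (25%) for K198R. The shares of all 13283 tested genes with a start site were 30.3%, 10.5% and 36.8%. The K198Q count is near that of all genes, and none of the differences was tested. Birc5, Anln and Mki67 had a peak with all 3 forms. Cdk1, Kif11 and Ndc80 had one with wild-type Pax5 and K198R, Ube2c and Ect2 with wild-type Pax5, and Aurkb, Incenp, Nuf2 and Foxm1 with K198R. At Birc5 the fold enrichment over input was 10.1 and 12.9 with wild-type Pax5, 6.76 and 9.41 with K198Q and 9.79 and 9.44 with K198R, and Birc5 RNA differed from EV by -0.02, -0.11 and 0.07 with these forms. Cdc25b had a peak within 10000 bp with all 3 forms, and neither Cenpa nor Kif23 had one in both replicates within that distance. The peak lists differ in size, and K198R was also the form with the most Pax5 RNA.

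**Figure D5:**
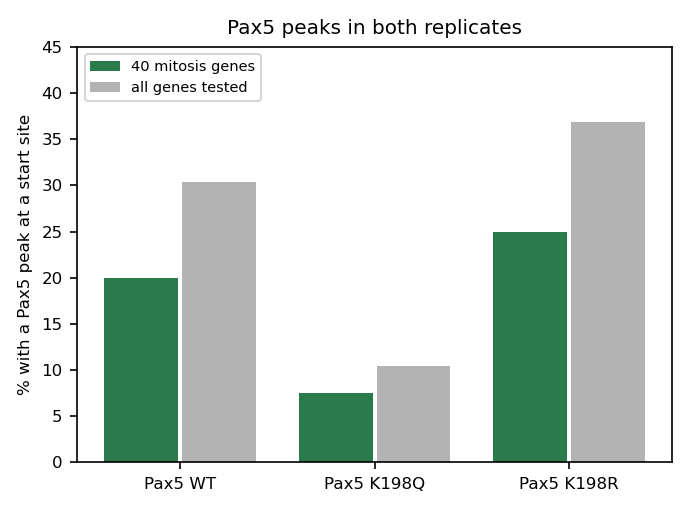
Share (%, from 0) of the 40 mitosis genes (green) and of all 13283 tested genes (grey) with a Pax5 peak in both replicates within 2000 bp of the start site, for each form of Pax5. The green bars stand at 20%, 7.5% and 25%, each below the grey bar beside it.

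The last comparisons asked the same of cultured pro-B cells. Sirt7-/- cells with EV were compared with wild-type cells with EV, and the median of the 40 genes was -0.11 (-0.01 over all genes tested), with 5 above 0 and 35 below. The mature B markers, of which 7 of 8 were found in the table, summed to 1379 and 1974 normalized counts in the wild-type and 4378 and 7489 in the Sirt7-/- libraries, with Ighd or Cd22 as the most abundant and none at 0, and their part was not tested. Sirt7-/- cells with wild-type Pax5 or K198R were compared with the same Sirt7-/- EV libraries, with medians of -0.08 and -0.07 (-0.01 and 0.01 over all genes tested), and K198R against wild-type Pax5 gave 0.02. None of the 40 was called in these 4 comparisons by limma, where 0.557%, 0.0366%, 4.83% and 0.425% of all genes were, and 1, 4, 4 and 1 of the 40 had an unadjusted p under 0.05, where 9.68%, 9.91%, 18.4% and 8.78% did.

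The largest difference among them was that of Cdc25b with K198R. It was at 7774 and 5730 normalized counts in wild-type cells with EV, and in Sirt7-/- cells at 5808 and 6262 with EV, 5803 and 4508 with wild-type Pax5 and 3942 and 3177 with K198R. Both K198R libraries lay below both EV libraries (-0.77, adjusted p = 0.0601 in limma), and Cdc25b passed with the replicate block (0.00993), where 11.6% of all genes were called, and in a fit of these groups alone (0.0287), where 2.79% of all genes were lower. The feeder and stroma markers summed to 7279 and 11446 with EV and to 8921 and 21935 with K198R in these cells, led by Fn1. Markers of other cell types moved further: the mature B sum was 4378 and 7489 with EV and 19115 and 42659 with K198R, with Ighd as the most abundant gene of both K198R libraries and none at 0, and the T cell sum was 2960 and 1657 with EV and 825 and 391 with K198R, over the 6 of 10 markers found in that table, led by Thy1, with Cd4 and Cd8a at 0 in both EV libraries and Cd3d at 0 in both K198R libraries. The part of these markers in the Cdc25b difference was not tested.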

How the data were processed

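Per the labels and the methods of the study, the authors quantified polyadenylated RNA with Salmon on mm10, used Tximeta for import and deposited values scaled by DESeq2 size factors, here called normalized counts (a signal scale rather than whole reads). Each table was normalized separately, so levels were compared within tables only. Totals per library were 50603577 to 54896194 normalized counts in the sorted table, 28865461 to 30520853 in the Pax5-/- table and 27814214 to 30160880 in the cultured table. Reads of the ChIP libraries were aligned with Bowtie2, and the authors called peaks with MACS2 in each library over its input, with deposited fold enrichment (a ratio over input), signal, score and −log10 p and q values; the 6 input libraries were not used.

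A gene entered the test if 2 or more of its table's 8 libraries reached 10 normalized counts. The tool was limma 3.58.1 in R 4.3.3 (log2 of normalized count + 1, trend, 4 groups in 1 model), with Benjamini-Hochberg adjustment over all genes tested and a call at an adjusted p under 0.05, alone or together with a log2 change of 1.5 or more in size. Fold changes on this scale understate the change of low genes. Dividing by the step of each library gave whole reads for 100% of sorted values within 0.01 read, 50004827 to 55536608 reads per library, so edgeR 4.0.16 (quasi-likelihood) and DESeq2 1.42.0 were run on them as alternatives. The limma fit was tested on simulated data for a single comparison, Sirt7-/- against wild type in sorted pre-B cells. The other steps were not tested that way. The 2 replicates of each group came from separate mice or cultures, and p-values measure the spread between them. The study states that its RNA replicates were made on different days. In the sorted table the replicate number may therefore stand for a day as well as a mouse, and may pair the genotypes. Replicate numbers paired the Pax5-/- and cultured libraries: deviations from group means correlated at 0.422 to 0.615 and 0.212 to 0.487 over all pairs of groups, across genes, while in the sorted table, where a mouse gave both stages, the range was -0.0302 to 0.150.

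The members, gene lists and tests were chosen with earlier results of these data known. All 40 members were described. Values in every sorted library were given for 12 members standing for the roles and, in each comparison, for the called members with the 3 largest changes in each direction, as were names from the other lists; Pttg1, Cdc25b and Kif23 were added after their values were seen. Peaks and start sites used mm10 (GENCODE M21), promoters RefSeq GRCm38.p6.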

Additional observations from a re-analysis of the deposited data

Results flagged for a closer look

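Contrasts of the same name were measured in more than 1 kind of cell, though not on the same background. Pax5 was restored to Pax5-/- cells but added to Sirt7-/- cells that carried their own Pax5. Sorted pro-B and pre-B cells were both set beside cultured pro-B cells. In 10 of 200 pairs of comparisons of a mitosis gene every library of the first group moved one way and every library of the other moved the opposite way. That is 5% of the pairs, beside 9.05% of the same pairs over all genes measured in both tables. None of these differences was tested, since the tables were normalized separately. Both of the largest were at Cdc25b, the phosphatase that activates cyclin-dependent kinase 1. K198R against EV was 0.65 in Pax5-/- cells and -0.77 in cultured Sirt7-/- cells, a gap of 1.42 on the log2 scale. Wild-type Pax5 against EV was 0.77 and -0.24, a gap of 1.01. The cells differed in strain, in Sirt7 genotype and in whether they carried their own Pax5. Cdc25c followed for wild-type Pax5 against EV (0.40 and -0.16, a gap of 0.552), as did the checkpoint kinase gene Ttk (0.30 and -0.21, a gap of 0.505).

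The other 6 concern Sirt7-/- against wild type. Between sorted pre-B cells and cultured cells with EV, Espl1 was at 0.49 and -0.40 (a gap of 0.893), Plk1 at 0.68 and -0.20 (0.880), Kif11 at 0.65 and -0.19 (0.834), Tpx2 at 0.66 and -0.13 (0.794) and Incenp at 0.53 and -0.24 (0.764). These 5 of 40 genes (12.5%) stand beside 7.44% of all genes. In the other 4 pairs of comparisons the share of the 40 was below that of all genes: 2.5% beside 14% for K198R against EV, 7.5% beside 9.95% for wild-type Pax5 against EV, 0% beside 6.87% for K198R against wild-type Pax5, and 2.5% beside 6.74% for Sirt7-/- against wild type in pro-B cells. Without the second Sirt7-/- pre-B library the pre-B values were 0.21 for Espl1, 0.40 for Plk1, 0.28 for Kif11, 0.37 for Tpx2 and 0.30 for Incenp. Between sorted pro-B cells and cultured cells, Ect2 was at 0.12 and -0.14 (0.258).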

How the results depend on the processing

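The fall of the 40 genes between the stages in wild type held in every alternative run, with 39 of 40 called without any 1 library (14% to 17% of all genes were lower) and 40 with edgeR (20.7%), DESeq2 (22.9%) and the replicate block (23.4%). In Sirt7-/- cells the count was 20 to 40 without 1 library and 1 by the rule with a log2 fold change of at least 1.5, with medians of -1.40 to -0.82. In pre-B cells DESeq2 called 6 higher for Sirt7-/- and the median was 0.203 to 0.766 without 1 library, 0.203 without both erythroid-rich Sirt7-/- libraries, where a lone library is assumed to vary like the other groups; the interaction median was 0.277 to 0.836. Cdk1 turned in the pre-B comparison (-0.177 to 0.754 without 1 library), at -0.177 without the second Sirt7-/- pre-B library, alone or with its pro-B pair, and at -0.0176 without the first wild-type library. For K198R against EV in Pax5-/- cells, a fit of these groups alone called 2.03% of all genes higher and 3.01% lower. By the fold rule these shares were 1.45% and 3.13%. In Pax5-/- cells, K198R against EV had 0 calls in a fit of these groups alone and by the fold rule, 3 with the replicate block and 0 to 5 without 1 library; without the first K198R library Cdc25b, Cenpe, Ndc80, Nek2 and Nusap1 were higher, as were 3.72% of all genes, and without the second Cenpa and Kif23 were lower, as were 3.67%. Wild-type Pax5 against EV had 1 call in the fit of its groups alone (Kif23, lower, as were 1.74% of all genes) and 1 with the replicate block (Cdc25b, higher, as were 5.03%), and K198R against K198Q had 0 to 4 without 1 library, all 4 higher and without the first K198R library, as were 1.45% of all genes. Medians without 1 library were -0.328 to 0.492 for K198R against EV, -0.389 to 0.432 against wild-type Pax5 and -0.296 to 0.558 against K198Q. In cultured cells K198R against EV had 1 call, lower, in the fit of its groups alone (2.79% of all genes) and with the replicate block (6.12%), and medians were -0.195 to -0.0202 for Sirt7-/- against wild type, -0.185 to -0.00408 for wild-type Pax5 against EV and -0.161 to 0.0212 for K198R against EV. For K198R peaks the count of genes was 5 at a −log10 q of at least 5 and 16 with a peak in at least 1 replicate, where all genes gave 30.3% and 53.3%. The causes were not tested. Of 167 counts 151 stayed within 1.5 times the reported count, and of 142 medians 124 moved by less than 1 SD between replicate libraries. Of 496 values of single named genes 31 lost and 9 gained the threshold and 3 changed sign; the replicate block changed no other call of the 40. Recovery of whole reads was run on the sorted table only, so edgeR and DESeq2 were not run on the other tables. With 2 libraries a group, differences within the spread of replicates were not detectable.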

Other observations

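Levels per kilobase of exon can be set against each other between genes within a group. In wild-type pro-B cells Mki67 (12442 normalized counts per kb), Top2a (12037) and Ccna2 (11170) were the highest of the 40, and Cenpf (1016) and Cdc25c (983) the lowest. In wild-type pre-B cells Cdc25b, which fell least, stood first at 4262 per kb, ahead of Mki67 (3984) and Top2a (3839), and Cenpf was last at 268. In both Sirt7-/- sorted groups Top2a was first (11414 and 5518) and Cenpf last (877 and 383). In all 4 cultured groups Top2a was first, between 4364 and 4947 per kb, followed by Cenpa, with Cenpf last. In Pax5-/- cells Cenpa stood above Top2a with EV (4754 and 3892) and with K198Q (4086 and 3707), and below it with wild-type Pax5 (3882 and 4048) and K198R (3311 and 4182), while Pttg1 was last in all 4 groups, between 111 and 150 per kb. These are means of 2 libraries and the differences between neighbours in order were not tested. Exon lengths were the union of annotated exons, so a gene whose short transcripts are the ones used is placed too low.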
